A study of Mus musculus with 12 samples.

Results

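The chemokine ligands and receptors of mouse bone marrow (BM) were followed across 4 genotypes by RNA-Seq. The family was chosen with earlier results of these data known, and its members were then taken by gene symbol, as the genes of the deposited table whose symbol is that of a numbered chemokine (Ccl, Cxcl, Cx3cl, Xcl) or receptor (Ccr, Cxcr, Cx3cr, Xcr, Ackr), together with Ccrl2. This gave 31 of 12199 genes, of which 14 were ligands and 17 were receptors. RefSeq lists 62 protein-coding mouse genes under the same rule, 39 ligands and 23 receptors. The ligands without a row in the table included Ccl19, Cxcl13 and Cx3cl1, so partners of Ccr7, Cxcr5 and Cx3cr1 were not analysed here. All 31 members passed the filter on low values, which removed 24 other genes.

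Groups were WT, DF (Dnmt3aFlox/+:MxCre with Flt3 ITD/+), TF (Tet2+/- with Flt3ITD/+) and TFD, which carried the alleles of both. The strain label was C57BL/6 for every library, and the WT mice came from a core facility. Poly(I:C), which induces interferon, was given to the mutants and to WT alike. The mice were 8 to 10 weeks old at that time, and marrow was taken 8 to 9 weeks afterwards. MxCre is a Cre recombinase under an interferon-inducible promoter, so it is not restricted to blood cells, and no Cre allele is given for TF or WT. There were 3 libraries each of WT, DF and TF and 2 of TFD, made from whole BM mononuclear cells, and TFD replicate 3 was not analysed here. The labels do not state that replicates were separate animals, so p values measure the spread between these libraries.

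Chemokines are small secreted proteins that guide leukocytes, and their names (CC, CXC, XC, CX3C) follow the spacing of conserved cysteines. They bind receptors with membrane-spanning helices that signal through inhibitory G proteins to phosphoinositide 3-kinase, Rac and the actin skeleton, and arrestins then silence the receptor. In BM, CXCL12 from stromal cells holds CXCR4-bearing progenitors and neutrophils in place, CXCR2 ligands draw neutrophils out to the blood, and CCR2 is needed for monocytes to leave. Atypical receptors such as ACKR1 bind chemokines without coupling to G proteins.

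Library totals ranged from 8274153 to 15900904 counts. Members took from 0.167% to 0.190% of the counts in WT and from 0.265% to 0.377% in the mutants. TF replicate 3 stood apart from the other TF libraries for lymphoid genes. Its summed B cell markers reached 115 CPM (counts scaled to library totals adjusted by TMM factors), against 27.5 and 28.4 in TF replicates 1 and 2, and its erythroid markers reached 785 CPM against 208 and 297. Values against WT that this library moved by over 1.5 times are therefore also given without it. WT replicate 3, TF replicate 3 and TFD replicate 2 had over 10000 Xist reads and the other 8 libraries did not, and a fit with a term for these libraries is called the Xist term. In whole marrow, fewer cells of a type and less RNA per cell cannot be told apart.

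**Figure D1:**
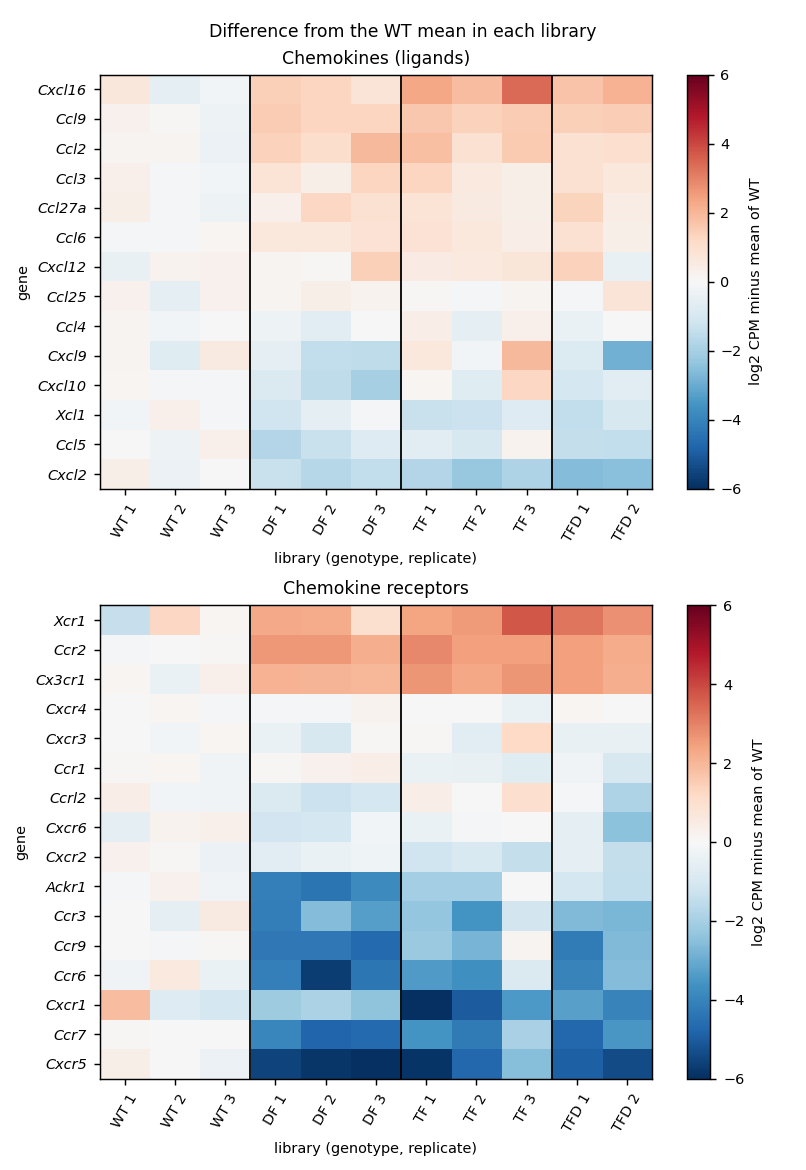
Deposited log2 CPM of each member reported minus its mean over the 3 WT libraries, with 1 column per library, ligands above and receptors below, ordered by the mean difference in the mutants. Colours stop at differences of 6, and the Ccr2, Cx3cr1 and Ccl9 rows are red in all 8 mutant libraries while the Cxcr5 and Ccr7 rows are blue, least so in TF replicate 3.

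Promoters are printed first for every member that rose, or fell, in DF, TF and TFD alike and has an entry, because the expression results below return to them. Of the members, 24 have an entry in the RefSeq table of promoters (build GRCm38.p6), and among those without one are Ccl2, Ccl4, Ccl5, Cxcl16, Ccr7 and Cxcr5. Each line gives the 250 bases before the start of the gene, 5′ to 3′ on the strand of the gene. They are shown for 8 members. Of these, the receptors Ccr2 (chr9:124101933-124102182, plus strand) and Cx3cr1 (chr9:120068297-120068546, minus strand) and the ligand Ccl9 (chr11:83578637-83578886, minus strand) rose, as did the ligand Ccl6 (chr11:83593088-83593337, minus strand). The ligand Cxcl2 (chr5:90903649-90903898, plus strand) and the receptor Ccr3 (chr9:124021721-124021970, plus strand) fell, as did the receptors Ccr6 (chr17:8235793-8236042, plus strand) and Cxcr1 (chr1:74194632-74194881, minus strand). Capitals mark matches, on either strand, to GGG, any 3 bases and TTCC (kappaB), to TGANTCA (AP-1), TGTGGT (RUNX), GAGGAAG (PU.1) or TTGCNNAA (C/EBP), where N is any base.
Ccr2: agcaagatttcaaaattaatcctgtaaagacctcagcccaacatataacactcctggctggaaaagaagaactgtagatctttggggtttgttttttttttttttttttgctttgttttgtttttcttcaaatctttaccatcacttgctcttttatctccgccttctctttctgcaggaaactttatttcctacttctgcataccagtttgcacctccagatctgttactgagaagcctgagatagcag
Cx3cr1: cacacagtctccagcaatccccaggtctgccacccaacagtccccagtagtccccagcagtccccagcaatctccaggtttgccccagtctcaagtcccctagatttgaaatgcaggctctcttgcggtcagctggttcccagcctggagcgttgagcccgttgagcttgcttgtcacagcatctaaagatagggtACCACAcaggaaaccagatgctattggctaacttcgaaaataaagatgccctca
Ccl9: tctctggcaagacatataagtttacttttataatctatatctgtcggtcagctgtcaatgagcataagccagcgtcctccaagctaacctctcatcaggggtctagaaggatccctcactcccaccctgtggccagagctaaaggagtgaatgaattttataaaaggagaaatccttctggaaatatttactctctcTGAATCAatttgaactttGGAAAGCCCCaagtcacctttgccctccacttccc
Ccl6: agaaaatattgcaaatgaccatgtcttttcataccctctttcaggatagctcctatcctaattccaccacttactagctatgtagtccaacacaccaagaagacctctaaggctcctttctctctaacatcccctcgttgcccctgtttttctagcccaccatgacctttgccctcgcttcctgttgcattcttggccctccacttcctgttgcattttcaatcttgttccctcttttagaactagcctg
Cxcl2: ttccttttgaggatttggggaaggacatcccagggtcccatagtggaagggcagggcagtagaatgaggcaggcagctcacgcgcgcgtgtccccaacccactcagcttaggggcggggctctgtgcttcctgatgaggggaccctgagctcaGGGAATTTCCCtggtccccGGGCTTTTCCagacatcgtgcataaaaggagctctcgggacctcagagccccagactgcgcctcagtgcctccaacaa
Ccr3: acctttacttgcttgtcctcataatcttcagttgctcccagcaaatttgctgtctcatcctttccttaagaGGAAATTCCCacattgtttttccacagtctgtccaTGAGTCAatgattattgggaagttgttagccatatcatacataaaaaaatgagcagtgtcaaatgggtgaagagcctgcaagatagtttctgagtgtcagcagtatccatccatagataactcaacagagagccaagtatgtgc
Ccr6: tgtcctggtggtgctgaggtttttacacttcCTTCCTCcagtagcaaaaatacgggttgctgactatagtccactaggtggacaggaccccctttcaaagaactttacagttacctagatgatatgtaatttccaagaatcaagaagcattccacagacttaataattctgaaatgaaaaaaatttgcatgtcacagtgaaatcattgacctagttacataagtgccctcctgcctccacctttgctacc
Cxcr1: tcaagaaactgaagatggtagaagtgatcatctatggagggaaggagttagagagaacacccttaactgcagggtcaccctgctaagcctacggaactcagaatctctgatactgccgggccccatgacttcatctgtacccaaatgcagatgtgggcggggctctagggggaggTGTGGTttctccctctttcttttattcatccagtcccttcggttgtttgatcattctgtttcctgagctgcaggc

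The Cxcl2 promoter holds 2 separate stretches with the kappaB letters, the first of them matching on both strands in overlapping frames 97 to 87 bases before the start and the other 78 to 69 bases before it. In Ccl9 a kappaB match lies 35 to 26 bases and an AP-1 match 53 to 47 bases before the start. In Ccr3 they lie at 179 to 170 and 144 to 138 bases. Cx3cr1 has a RUNX match 54 to 49 bases before its start, and Cxcr1 has one 75 to 70 bases before its start. Ccr6 has a PU.1 match at 219 to 213 bases, and the Ccr2 and Ccl6 windows hold none of the 5 motifs. Over the 24 members the kappaB letters occurred in 4, against 4.65% of 32851 mouse promoters of the same length, and the AP-1 letters in 3, against 6.75%. RUNX letters were found in 8 members (14.0% of all promoters), PU.1 letters in 2 (10.6%) and C/EBP letters in 1 (9.56%). CpG dinucleotides, the substrate of the enzymes that Dnmt3a and Tet2 encode, ranged from 0 to 45 over the 24 windows, with 45 in Ccl25, 19 in Cxcr4 and 14 in Cxcl12. The windows held a median of 3 against 6 over all promoters, with 1 in Ccr2, 0 in Ccr3, 4 in Cx3cr1, 2 in Ccl9 and in Ccl6, 1 in Ccr6, 4 in Cxcr1 and 9 in Cxcl2. A match is a description of the letters and not evidence of binding, and DNA methylation was not measured here.

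The first question was which chemokines and receptors differed between the marrow of each mutant genotype and WT marrow. Ligands changed in both directions, with rises of up to 5.78-fold for Cxcl16 in TF and falls of up to 6.05-fold for Cxcl2 in TFD. More receptors fell than rose, and those that rose were Ccr2, Cx3cr1 and Xcr1. A gene is called here when the quasi-likelihood test of edgeR gave a Benjamini-Hochberg adjusted p under 0.05 over the 12175 genes tested. In DF, 6 of the 31 members rose (19.4%) and 11 fell (35.5%), where 21.0% of all genes tested rose and 16.6% fell. In TF, 8 members rose (25.8%) and 9 fell (29.0%), where 19.0% and 15.6% of all genes did. In TFD, 7 rose (22.6%) and 10 fell (32.3%), where 14.7% and 11.6% of all genes did. The 3 comparisons share the WT libraries. When TMM factors were replaced by library totals the members' counts in DF stayed at 6 and 11, although among all genes called in DF the share that was higher went from 55.9% to 42.3%. Without TF replicate 3, 8 members rose and 11 fell in each of the 3 comparisons, where 21.8% of all genes rose and 17.3% fell in DF, 19.0% and 16.6% in TF, and 15.8% and 12.8% in TFD.

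Split by class, the 14 ligands gave 4 called higher (28.6%) and 3 called lower (21.4%) in DF and likewise in TFD, and 5 (35.7%) and 2 (14.3%) in TF. Their median log2 fold change was 0.42 in DF, 0.57 in TF and 0.49 in TFD, beside medians over all genes of 0.05, 0.02 and 0.01. The 17 receptors gave 2 called higher (11.8%) and 8 called lower (47.1%) in DF, and 3 (17.6%) and 7 (41.2%) in both TF and TFD, with medians of −0.77, −0.52 and −0.96. Of the ligands, Ccl2, Ccl6 and Ccl9 rose and Cxcl2 fell in all 3 mutant genotypes. Of the receptors, Ccr2 and Cx3cr1 rose and Ccr3, Ccr6, Ccr7, Cxcr1 and Cxcr5 fell in all 3. The 5 ligands Ccl4, Ccl25, Ccl27a, Cxcl9 and Cxcl12 and the receptors Cxcr3, Cxcr4 and Cxcr6 passed the test in none of the 3.

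**Figure D2:**
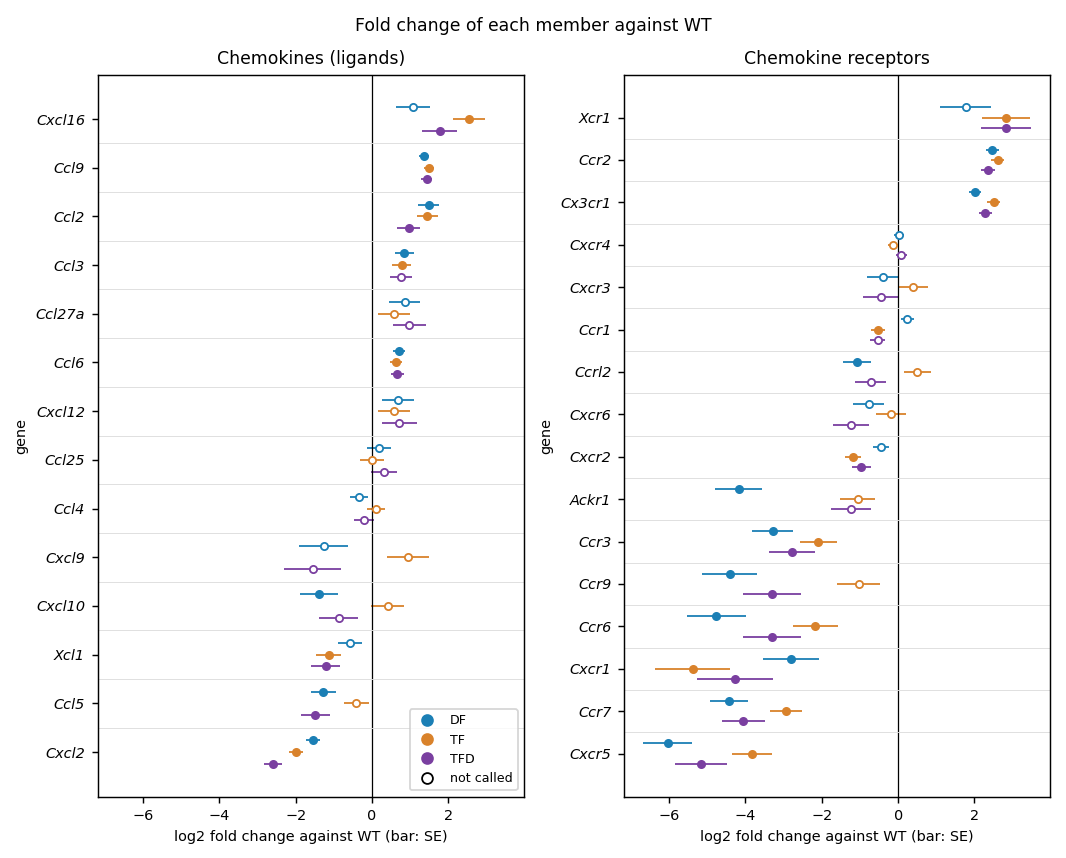
Log2 fold change of each member reported against WT in DF, TF and TFD from edgeR, with bars of 1 SE, ligands on the left and receptors on the right. Filled points passed the test and open points did not, and the receptor panel spans from −6.04 for Cxcr5 in DF to 2.83 for Xcr1 in TF.

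Among the ligands that rose, Ccl9 had the smallest error. CCL9 and CCL6 are mouse CC chemokines of myeloid cells that bind CCR1. The log2 CPM of Ccl9 was 6.54, 6.36 and 6.00 in WT, 7.82, 7.57 and 7.61 in DF, 7.91, 7.69 and 7.83 in TF, and 7.73 and 7.78 in TFD. All mutant libraries lay above all WT libraries. On the log2 scale Ccl9 rose by 1.35 in DF (SE 0.13), 1.50 in TF (SE 0.13) and 1.43 in TFD (SE 0.14), with adjusted p values of 1.90e-05, 8.99e-06 and 2.76e-05. Ccl6, which lies beside Ccl9, had a log2 CPM of 7.69, 7.68 and 7.89 in WT, 8.39, 8.36 and 8.64 in DF, 8.61, 8.39 and 8.14 in TF, and 8.67 and 8.11 in TFD. It rose by 0.71 in DF, 0.64 in TF and 0.66 in TFD (adjusted p = 0.00399, 0.00827 and 0.0137), and no mutant library reached down to the WT range. Without TFD replicate 1 its call in TFD was lost (adjusted p = 0.199).

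Ccl2 encodes the main ligand of CCR2. Its log2 CPM was 3.11, 3.10 and 2.57 in WT, 4.32, 3.96 and 4.88 in DF, 4.72, 3.82 and 4.49 in TF, and 3.86 and 3.94 in TFD. Every mutant library exceeded every WT library. Ccl2 rose by 1.49 in DF (SE 0.27), 1.45 in TF (SE 0.27) and 0.96 in TFD (SE 0.30), at adjusted p values of 0.00106, 0.00154 and 0.0304. The TFD call was lost without WT replicate 2 or 3 or either TFD library, with an adjusted p of up to 0.103.

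Ccl3, which encodes a ligand of CCR1, had a log2 CPM of 5.13, 4.71 and 4.66 in WT, 5.67, 5.21 and 6.11 in DF, 6.10, 5.43 and 5.19 in TF, and 5.74 and 5.47 in TFD. On the log2 scale it rose by 0.85 in DF and 0.77 in TF (adjusted p = 0.0189 and 0.0312), while the value of 0.76 in TFD missed the threshold (adjusted p = 0.0609). In TFD, Ccl3 was called with DESeq2, the Xist term, a term for replicate numbers (the replicate block) and the fit of only the genotypes compared. It was also called there without WT replicate 1, DF replicate 2 or 3, or TF replicate 1 or 3. The ranges did not overlap, but the margin was small, and the DF and TF calls were lost without WT replicate 2 or 3, DF replicate 3 or TF replicate 1, at an adjusted p of up to 0.166. Ccl4, its neighbour, lay between 3.58 and 4.68 in all libraries and was not called against WT, with values of −0.35, 0.11 and −0.21 in DF, TF and TFD. Without TF replicate 2 it was called lower in DF than in TF.

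Cxcl16, a membrane-bound ligand of CXCR6 that also acts as a scavenger receptor, had 32, 9 and 16 counts in WT, 56, 61 and 28 in DF, 100, 71 and 188 in TF, and 85 and 78 in TFD. In log2 CPM these were 1.40, 0.18 and 0.54 in WT, 2.16, 1.98 and 1.48 in DF, 3.02, 2.54 and 4.10 in TF, and 2.42 and 2.80 in TFD, with DF replicate 3 just above WT replicate 1. Cxcl16 rose by 2.53 in TF (SE 0.42) and 1.78 in TFD (SE 0.46), at adjusted p values of 0.000756 and 0.0129, and the DF value was 1.07 (adjusted p = 0.0721), which was called with DESeq2, the Xist term, the fit of only the genotypes compared and without WT replicate 1 or TF replicate 2. Without TF replicate 3 the TF value was 1.96 (adjusted p = 0.000544) and that in DF was called (adjusted p = 0.0183), and without TFD replicate 2 the TFD call was lost (adjusted p = 0.0666). GENCODE vM21 places 552 of its exon bases over exons of Zmynd15 on the opposite strand, and whether reads were counted by strand is not given in the sources used here.

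Cxcl2 fell most among the ligands. Its product attracts neutrophils through CXCR2, and the gene is a well known kappaB target, whose letters are in the promoter printed above. The log2 CPM was 6.54, 5.81 and 6.15 in WT, 4.83, 4.45 and 4.68 in DF, 4.41, 3.88 and 4.31 in TF, and 3.57 and 3.64 in TFD. No mutant library reached the WT range, DF lay above TF, and both TFD libraries were the lowest of all. Between mutant genotypes, no difference of Cxcl2 was called by edgeR with all libraries. Against WT the change was −1.54 in DF (SE 0.18), −1.98 in TF (SE 0.19) and −2.60 in TFD (SE 0.23), the last being 6.05-fold lower, with adjusted p values of 5.96e-05, 1.45e-05 and 1.23e-05.

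Ccl5 and Xcl1 are made mainly by T and NK cells. Ccl5, whose product attracts T cells and monocytes, had a log2 CPM of 2.68, 2.38 and 3.01 in WT, 0.95, 1.38 and 1.92 in DF, 2.02, 1.75 and 2.92 in TF, and 1.26 and 1.23 in TFD. Its log2 fold change was −1.28 in DF and −1.48 in TFD (adjusted p = 0.0101 and 0.0132), and both ranges lay below WT. In TF the value was −0.41 (adjusted p = 0.343), and without TF replicate 3 it was −0.83 (adjusted p = 0.0407), while the TFD call was lost without either TFD library (adjusted p up to 0.0687). Xcl1 encodes the ligand of XCR1 and had 39, 37 and 37 counts in WT, 20, 39 and 34 in DF, 18, 18 and 23 in TF, and 21 and 21 in TFD. The changes were −0.57 in DF, −1.13 in TF and −1.22 in TFD, with adjusted p values of 0.174, 0.0190 and 0.0298. The TF and TFD calls were lost without WT replicate 2, TF replicate 1 or 2, or either TFD library, at an adjusted p of up to 0.186. Of the Xcl1 exon bases 98 (18.7%) lie over a non-coding gene on the opposite strand in GENCODE vM21. Beside these ligands, 5 of 8 T cell markers fell in DF, 1 in TF and 4 in TFD, and 5, 5 and 4 of 6 NK cell markers fell. The T cell sum was 47.9 to 56.0 CPM in WT, 18.9 to 29.8 in DF, 27.1 to 59.6 in TF and 13.7 to 24.1 in TFD. The NK cell sum was 64.9 to 69.0 CPM in WT, 54.6 to 76.6 in DF, 42.4 to 58.7 in TF and 38.5 to 59.8 in TFD. Their part in the ligand values was not tested.

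Cxcl9 and Cxcl10 encode interferon-induced ligands of CXCR3 and lie next to each other (chr5:92321331-92348889). Cxcl10 had 33, 19 and 26 counts in WT, 17, 13 and 6 in DF, 33, 18 and 64 in TF, and 19 and 17 in TFD. Its change was −1.39 in DF on the log2 scale (adjusted p = 0.0389), a fall, and 0.42 in TF and −0.88 in TFD, neither called (adjusted p = 0.478 and 0.241). The DF call was lost with a term for libraries with Xist reads and without any 1 WT library or DF replicate 2 or 3, with an adjusted p of up to 0.113. In GENCODE vM21, 133 exon bases of Cxcl10 lie over Art3 on the opposite strand. Cxcl9 had 20, 7 and 24 counts in WT, 12, 8 and 5 in DF, 28, 16 and 62 in TF, and 13 and 2 in TFD. Its values of −1.26, 0.94 and −1.56 in DF, TF and TFD had adjusted p of 0.135, 0.201 and 0.140. In DF the fit of only the genotypes compared called Cxcl9 lower. For both genes TF replicate 3 was the highest of the 11 libraries, and without it the TF value was −0.25 for Cxcl10 and 0.16 for Cxcl9 (adjusted p = 0.622 and 0.817).

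The 3 remaining ligands were not called by edgeR against WT. Cxcl12, the CXCR4 ligand of the stroma, ranged from 3.30 to 5.20 in log2 CPM, with values of 0.67 in DF, 0.58 in TF and 0.71 in TFD on the log2 scale (lowest adjusted p = 0.228). The TFD value turned to −0.48 without TFD replicate 1 and was called at 1.34 without TFD replicate 2 (adjusted p = 0.0409), and in TF the fit of only the genotypes compared called it higher. DF replicate 3 and TFD replicate 1 were its highest libraries, at 5.20 and 5.11. Of the 10 stromal and endothelial markers, 8 were in the table, of which 2 rose and 1 fell in DF and 1 rose in each of TF and TFD. Their sum was 26.1 to 46.8 CPM in WT, 32.0 to 46.5 in DF, 28.7 to 62.5 in TF and 32.2 to 47.6 in TFD. Ccl25, the ligand of CCR9, had 10 to 35 counts in all libraries and values of 0.17, −0.01 and 0.31. Ccl27a, a CCR10 ligand with 6 to 32 counts, has a near-identical genomic copy, Ccl27b, so its unique alignments are uncertain.

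**Figure D3:**
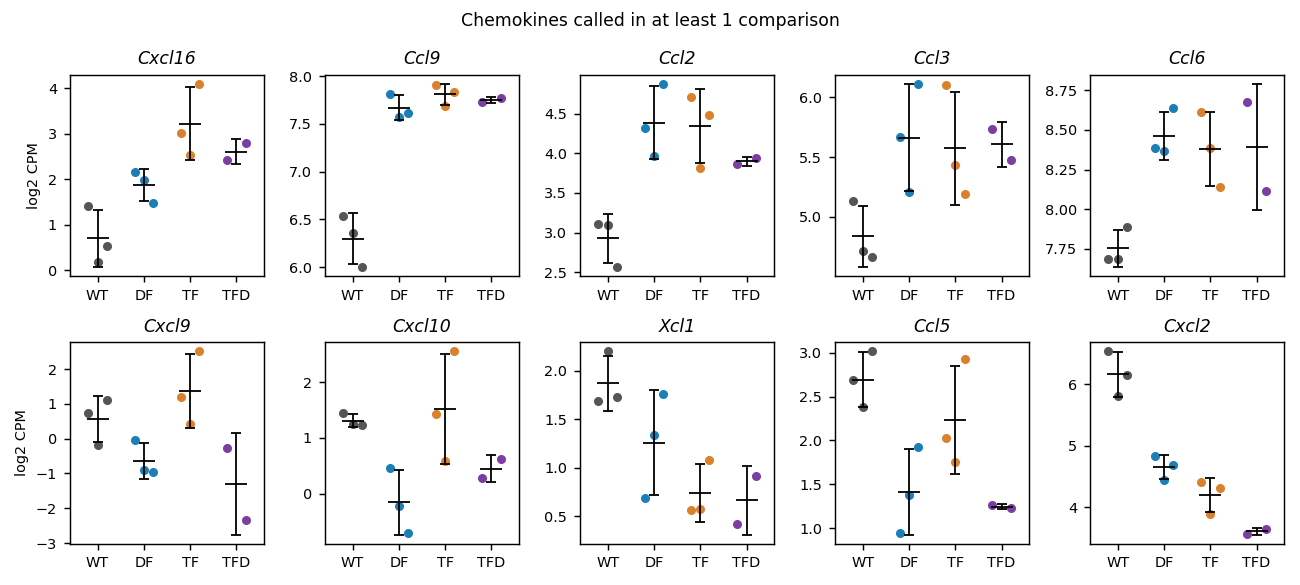
Deposited log2 CPM of the 10 ligands that passed the test in at least 1 of the 6 comparisons, 1 dot per library, with the mean and SD of each genotype as a horizontal mark and bar. The 3 WT dots of Cxcl2 lie above, and those of Ccl9 and Ccl2 below, all 8 mutant dots.

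Ccr2, the CCL2 receptor of classical monocytes (chr9:124102183-124109140), gave the most reads of any receptor in each mutant library. The log2 CPM was 8.03, 8.15 and 8.21 in WT, 10.71, 10.75 and 10.31 in DF, 11.02, 10.58 and 10.60 in TF, and 10.60 and 10.36 in TFD. The lowest mutant library exceeded the highest WT library by more than 2 on this scale. Ccr2 rose by 2.47 in DF (SE 0.17), 2.61 in TF (SE 0.17) and 2.35 in TFD (SE 0.18) on the log2 scale, or 5.55-, 6.13- and 5.10-fold, with adjusted p values of 2.19e-06, 1.02e-06 and 4.63e-06. Its share of all receptor reads rose from 19.6% to 25.5% in WT libraries to 54.8% to 70.6% in mutant libraries.

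Cx3cr1 encodes the receptor of fractalkine on non-classical monocytes, macrophages and their precursors. Its log2 CPM was 4.78, 4.23 and 4.95 in WT, 6.76, 6.69 and 6.67 in DF, 7.28, 6.98 and 7.31 in TF, and 7.10 and 6.85 in TFD. The groups of mutants lay close together and apart from WT, with DF below TF. It rose by 2.01 in DF (SE 0.16), 2.50 in TF (SE 0.16) and 2.29 in TFD (SE 0.17), at adjusted p values of 6.12e-06, 1.02e-06 and 4.63e-06. Monocyte markers were also higher in the mutants, as were Ccl2, Ccl6 and Ccl9. Of 8 such markers, 7 rose in DF, 7 in TF and 6 in TFD, and none fell. Their sum was 1930 to 2280 CPM in WT, 6833 to 7387 in DF, 4824 to 6643 in TF and 6320 to 6792 in TFD. Macrophage markers gave 1 of 8 higher and 6 lower in DF, 2 and 1 in TF, and 2 and 3 in TFD, with sums of 278 to 400 CPM in WT, 278 to 307 in DF, 371 to 590 in TF and 376 to 553 in TFD. What part these cells have in the receptor values was not tested.

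Xcr1, the XCL1 receptor that marks cross-presenting conventional dendritic cells, had 1, 5 and 3 counts in WT, 16, 19 and 5 in DF, 17, 19 and 39 in TF, and 39 and 20 in TFD. At these counts the WT level is known only coarsely, and DF replicate 3 overlapped WT. Pooled over libraries, the ratio to WT was 3.65 (95% counting interval 1.74 to 8.56) in DF, 7.36 (3.68 to 16.7) in TF and 7.57 (3.73 to 17.4) in TFD, intervals that cover counting error only. Without WT replicate 2, which holds 5 of the 9 WT counts, these ratios were 6.11, 12.3 and 12.7. Without WT replicate 1 they were 2.52 (1.16 to 6.23), 5.07 and 5.22, and without TF replicate 3 the TF ratio was 5.11. Xcr1 rose by 2.83 in TF (SE 0.63) and 2.82 in TFD (SE 0.66) on the log2 scale, at adjusted p values of 0.00417 and 0.00747, and the DF value of 1.77 missed the threshold (adjusted p = 0.0547). In DF, Xcr1 was called without WT replicate 2 (2.50, adjusted p = 0.0346), without DF replicate 3 or TF replicate 3, with the Xist term and in the fit of only the genotypes compared. Without WT replicate 1 the DF value was 1.22 (adjusted p = 0.197). Of 6 conventional dendritic cell markers, 4 rose in TF and 4 in TFD, and in DF 1 rose (Batf3) and 1 fell (Zbtb46). Their sum was 45.3 to 56.8 CPM in WT, 31.3 to 71.1 in DF, 130 to 350 in TF and 72.1 to 170 in TFD. Their part in the Xcr1 values was not tested.

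Receptors of B cells and naive lymphocytes were among those that fell furthest in DF, together with Ccr9. Cxcr5 directs B cells to follicles, Ccr7 directs lymphocytes and dendritic cells to lymph nodes, and Ccr6 is carried by mature B cells. Cxcr5 (chr9:44511787-44526421) had 241, 131 and 136 counts in WT, 4, 4 and 1 in DF, 3, 7 and 29 in TF, and 8 and 4 in TFD. Relative to WT the log2 change was −6.04 in DF (SE 0.64), −3.83 in TF (SE 0.52) and −5.16 in TFD (SE 0.68), with adjusted p values of 2.81e-05, 0.000169 and 0.000197. Mutant counts were far below WT, with TF replicate 3 the highest of the mutants. Without that library the TF value was −5.27 (adjusted p = 6.36e-07). GENCODE vM21 has 110 exon bases of Cxcr5 over Bcl9l on the opposite strand.

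Ccr7 had a log2 CPM of 4.61, 4.50 and 4.54 in WT, 0.61, −0.22 and −0.13 in DF, 0.97, 0.32 and 2.62 in TF, and −0.16 and 1.05 in TFD. The WT libraries were within a narrow range far above every mutant library. Ccr7 changed by −4.43 in DF (SE 0.49), −2.94 in TF (SE 0.43) and −4.05 in TFD (SE 0.55), at adjusted p values of 3.64e-05, 0.000302 and 0.000247. Without TF replicate 3 the TF value was −3.88, and without TFD replicate 2 the TFD value was −4.72. Ccr6 had 47, 54 and 37 counts in WT, 3, 1 and 2 in DF, 5, 4 and 26 in TF, and 4 and 8 in TFD. In DF its pooled ratio to WT was 0.0357 (95% counting interval 0.0129 to 0.0798). Its change was −2.17 in TF and −3.30 in TFD (adjusted p = 0.0141 and 0.00709), and without TF replicate 3 the TF value was −3.60 (adjusted p = 0.000169). The TF call was lost without WT replicate 2 or TF replicate 1 (adjusted p up to 0.0629) and the TFD call without TFD replicate 1 (−2.66, adjusted p = 0.0735), while without TFD replicate 2 the TFD value was −4.13. All 10 B cell markers fell in DF and in TFD and 9 of 10 fell in TF. Their sum was 490 to 581 CPM in WT, 16.3 to 27.1 in DF, 27.5 to 115 in TF and 21.8 in both TFD libraries, and its part in these receptor values was not tested.

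Ccr9, the CCL25 receptor of thymus- and gut-homing T cells and of plasmacytoid dendritic cells, had 156, 100 and 154 counts in WT, 8, 10 and 5 in DF, 34, 23 and 160 in TF, and 11 and 23 in TFD. TF replicate 3 was at the WT level while the other 7 mutant libraries were below it. Ccr9 changed by −4.42 in DF (SE 0.72) and −3.31 in TFD (SE 0.76) on the log2 scale, at adjusted p values of 0.000533 and 0.00669, and the latter call was lost without TFD replicate 1 (−2.66, adjusted p = 0.0713) and the value was −4.21 without TFD replicate 2. In TF the value was −1.04 (adjusted p = 0.166), and −2.48 (adjusted p = 6.68e-05) without TF replicate 3. The Xist term and limma, with all libraries kept, also called Ccr9 lower in TF. Of 6 plasmacytoid dendritic cell markers, 1 rose and 4 fell in DF, 2 rose and 1 fell in TF, and 1 rose and 2 fell in TFD, with sums of 373 to 423 CPM in WT, 415 to 493 in DF, 630 to 937 in TF and 478 to 599 in TFD. Their part in the Ccr9 values was not tested. Of the Ccr9 exon bases in GENCODE vM21, 1932 lie over a non-coding gene on the opposite strand.

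Ccr3, the eotaxin receptor of eosinophils, had 73, 34 and 98 counts in WT, 4, 15 and 6 in DF, 15, 6 and 31 in TF, and 15 and 10 in TFD. All mutant libraries were below WT. The change was −3.29 in DF (SE 0.54), −2.09 in TF (SE 0.49) and −2.78 in TFD (SE 0.60) on the log2 scale, with adjusted p values of 0.000538, 0.00586 and 0.00448. Without TF replicate 3 the TF value was −2.89 (adjusted p = 0.000343). Of the eosinophil markers, Il5ra, a subunit of the interleukin 5 receptor, fell in DF, TF and TFD, while the ribonuclease genes Ear2 (DF and TF) and Ear1 (TF) rose. The markers' sum was 277 to 359 CPM in WT, 259 to 368 in DF, 263 to 639 in TF and 204 to 327 in TFD, and of 6 markers 1 rose and 1 fell in DF, 2 rose and 1 fell in TF, and 1 fell in TFD. Basophil and mast cell markers gave 3 of 6 lower in TF and none called in DF or TFD, with sums of 308 to 356 CPM in WT, 277 to 415 in DF, 197 to 280 in TF and 223 to 379 in TFD.

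The neutrophil receptors Cxcr1 and Cxcr2 share a locus (chr1:74153994-74194631). Cxcr2 had a log2 CPM of 8.26, 8.08 and 7.67 in WT, 7.37, 7.62 and 7.74 in DF, 6.81, 7.10 and 6.56 in TF, and 7.42 and 6.57 in TFD. TF and TFD lay below WT, and DF overlapped it. Its log2 change was −0.44 in DF, −1.18 in TF and −0.96 in TFD (adjusted p = 0.117, 0.00130 and 0.0112). In DF it was called lower with the Xist term, in the fit of only the genotypes compared and without TFD replicate 2. Leaving out TFD replicate 2 cost the TFD call (adjusted p = 0.107). Cxcr1 had 142, 15 and 17 counts in WT, 9, 13 and 6 in DF, 0, 1 and 3 in TF, and 5 and 2 in TFD, so that WT replicate 1 stood far above the other WT libraries. Cxcr1 changed by −2.80 in DF (SE 0.73) and −4.27 in TFD (SE 0.99) on the log2 scale, at adjusted p values of 0.00940 and 0.00689, and the DF call was lost without WT replicate 1 (adjusted p = 0.0875). For TF the pooled ratio to WT was 0.0203 (95% counting interval 0.00547 to 0.0530, adjusted p of the fit 0.00132). That ratio was 0.0677 (0.0174 to 0.191) without WT replicate 1, 0.0312 (0.00840 to 0.0812) without TF replicate 1 and 0.00734 (0.000185 to 0.0415) without TF replicate 3. In the fits without WT replicate 1 the log2 change was −1.23 in DF and −2.67 in TFD (adjusted p = 0.0142 for TFD). Neutrophil markers gave none of 9 called in DF, 3 lower in TF and 1 lower in TFD. They summed to 51312 to 64328 CPM in WT, 58473 to 82059 in DF, 36797 to 47043 in TF, and 46255 and 23115 in TFD replicates 1 and 2, and their part in the values of Cxcr1, Cxcr2 and Cxcl2 was not tested.

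Ackr1, the atypical Duffy receptor of erythroid and endothelial cells, had 52, 43 and 43 counts in WT, 3, 3 and 3 in DF, 13, 13 and 48 in TF, and 34 and 18 in TFD. DF stood far below every other group. Its pooled ratio to WT in DF was 0.0536 (95% counting interval 0.0240 to 0.105), with an adjusted p of 0.000238 from the fit. The values in TF and TFD were −1.06 (adjusted p = 0.0893) and −1.24 (adjusted p = 0.0975), and without TF replicate 3 they were called, at −2.06 (adjusted p = 0.000312) and −1.23 (adjusted p = 0.00674). The replicate block and limma also called Ackr1 lower in TF, and the fit of only the genotypes compared did so in TFD. Erythroid markers fell for 7 of 7 genes in DF and 6 of 7 in TF and TFD, with sums of 775 to 967 CPM in WT, 51.2 to 77.1 in DF, 208 to 785 in TF and 193 to 311 in TFD. Their part in the Ackr1 values was not tested. Of the Ackr1 exon bases 284 lie over Cadm3 on the same strand in GENCODE vM21.

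Ccrl2 encodes a non-signalling receptor that binds chemerin, and of the comparisons with WT it was called in that of DF. The log2 CPM was 5.95, 5.41 and 5.35 in WT, 4.72, 4.26 and 4.52 in DF, 5.98, 5.57 and 6.58 in TF, and 5.50 and 3.70 in TFD, whose libraries differed by more than those of any other group. Ccrl2 changed by −1.09 in DF (SE 0.36, adjusted p = 0.0329), and the values were 0.50 in TF and −0.72 in TFD, the latter called at −1.90 (adjusted p = 0.00654) without TFD replicate 1, and the DF call was lost without WT replicate 1 or 2 or any 1 DF library (adjusted p up to 0.110). Ccr1, a receptor of CCL3, CCL6 and CCL9 on neutrophils and monocytes, had a log2 CPM of 8.05, 8.08 and 7.74 in WT, 8.04, 8.21 and 8.33 in DF, 7.56, 7.49 and 7.25 in TF, and 7.76 and 6.98 in TFD. In TF it fell by 0.52 on the log2 scale (adjusted p = 0.0338), and the values were 0.24 in DF and −0.54 in TFD (adjusted p = 0.297 and 0.0623). In TFD, Ccr1 was called lower with DESeq2, limma and the Xist term and without TFD replicate 1. The TF call was lost without WT replicate 1 or 2 or any 1 TF library, with an adjusted p of up to 0.109.

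The receptors Cxcr3, Cxcr4 and Cxcr6 were not called by edgeR against WT. Cxcr4, the receptor of CXCL12, had the narrowest range of all, from 7.88 to 8.53 in log2 CPM, and its log2 fold change was 0.03 in DF (SE 0.14), −0.12 in TF (SE 0.14) and 0.08 in TFD (SE 0.15). Cxcr3, a receptor of activated T cells and plasmacytoid dendritic cells, ranged from 1.06 to 3.21 and gave −0.41 in DF, 0.39 in TF and −0.45 in TFD, with −0.27 in TF without TF replicate 3. Cxcr6 ranged from −0.13, in TFD replicate 2, to 2.61 and gave −0.77, −0.19 and −1.24. In TFD, DESeq2 and limma called Cxcr6 lower, as did edgeR without WT replicate 1 or without TFD replicate 1 (−2.50 without the latter, adjusted p = 0.0112), and in DF the fit of only the genotypes compared did.

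**Figure D4:**
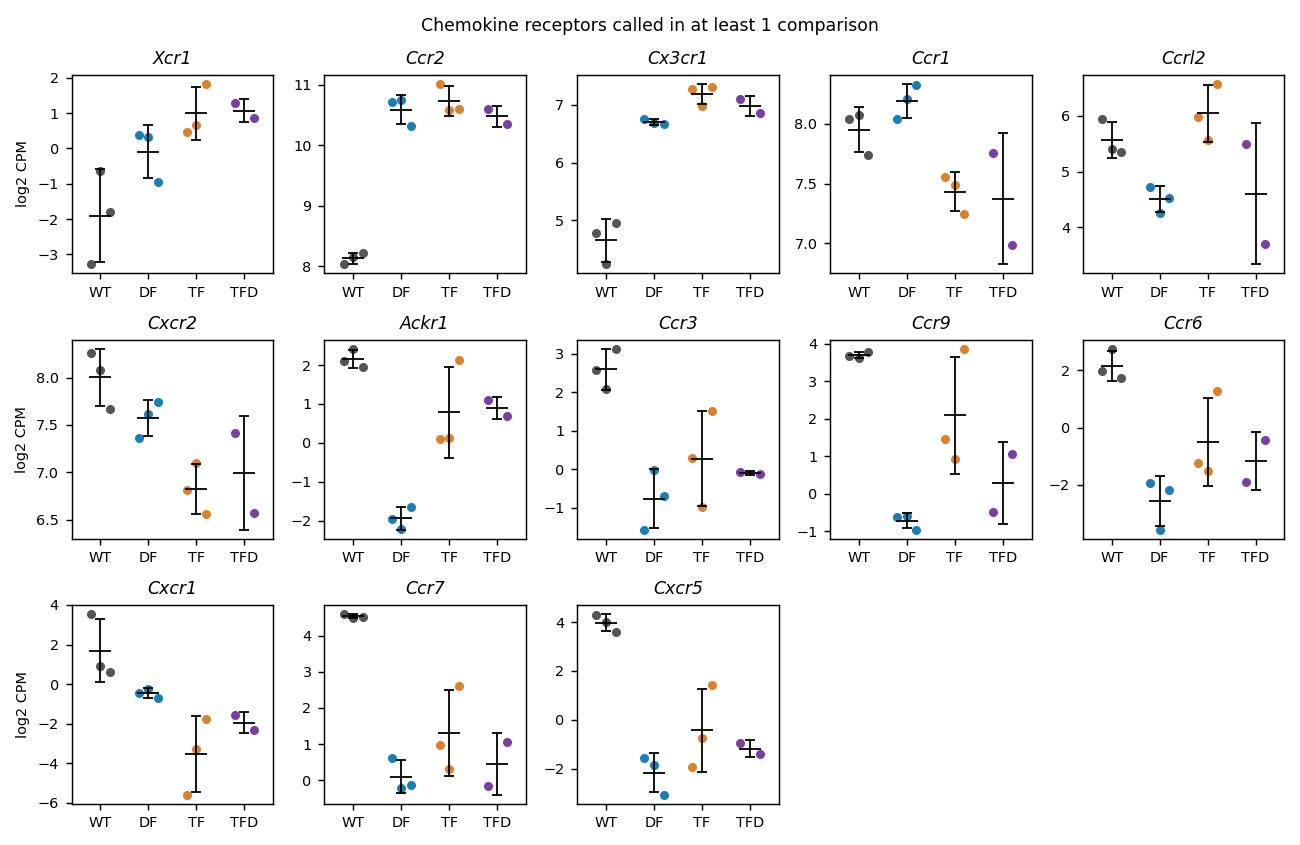
Deposited log2 CPM of the 13 receptors that passed the test in at least 1 of the 6 comparisons, 1 dot per library, with the mean and SD of each genotype as a horizontal mark and bar. A single TF dot, replicate 3, stands above the other TF dots for Cxcr5, Ccr7, Ccr6, Ccr9 and Ackr1, and a single WT dot of Cxcr1, replicate 1, stands above all others.

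Neighbouring receptor genes on chromosome 9 moved in different directions, whereas Cxcr1 and Cxcr2 on chromosome 1 both fell in TF and TFD. The receptors Ccr9, Cxcr6, Xcr1, Ccr1, Ccr3 and Ccr2 lie in this order within 342 kb on chromosome 9 (chr9:123767211-124109140). Ccr2 rose and its neighbour Ccr3 fell in each mutant genotype. Xcr1 rose in TF and TFD between Cxcr6 and Ccr1, which did not rise in any. Of the 14 ligands, Ccl5, Ccl9, Ccl6, Ccl3 and Ccl4 lie within 139 kb on chromosome 11 (chr11:83525779-83664683). There Ccl9 and Ccl6 rose in each mutant genotype and Ccl3 in DF and TF, Ccl5 fell in DF and TFD, and Ccl4 was called in none.

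**Figure D5:**
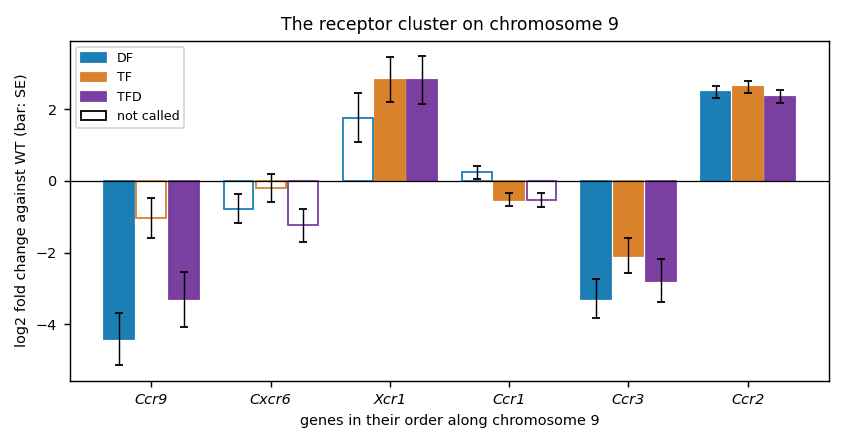
Log2 fold change against WT of 6 receptor genes of the chromosome 9 cluster, in their order along the chromosome, with bars of 1 SE and open bars where the test was not passed. Ccr3 is at −3.29, −2.09 and −2.78 and its neighbour Ccr2 at 2.47, 2.61 and 2.35 in DF, TF and TFD.

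Levels of different genes were compared per length, as RPKM (reads scaled by exon length and library size, computed from TMM-scaled CPM and the deposited gene length). Ccl6 was the most abundant ligand in all groups, at 151 ± 12 RPKM in WT, 246 ± 26 in DF, 234 ± 38 in TF (SD, n = 3 each) and 239 ± 65 in TFD (SD, n = 2). In WT, Cxcl2 came next at 67.7 ± 17 RPKM, before Ccl3 (36.5 ± 6.7), Ccl4 (29.3 ± 3.5) and Ccl9 (26.5 ± 4.8), of which the last 3 lie close to each other's spread. In the mutants Ccl9 came next, at 67.8 ± 6.3, 74.8 ± 5.6 and 71.7 ± 1.8 RPKM in DF, TF and TFD, beside Ccl3 at 66.2 ± 20, 62.6 ± 22 and 61.9 ± 8.0, and Cxcl2 was at 23.4 ± 3.1, 17.1 ± 3.1 and 11.2 ± 0.43. In DF and TF the Ccl9 mean lay within the SD of Ccl3, so their order there is not resolved. Cxcr4 led the WT receptors at 174 ± 16 RPKM, followed by Ccr1 (88.0 ± 11), Cxcr2 (85.5 ± 17) and Ccr2 (78.1 ± 4.9), which do not differ beyond their spread. In the mutants Ccr2 led at 434 ± 69, 479 ± 87 and 399 ± 48 RPKM in DF, TF and TFD, above Cxcr4 at 178 ± 23, 160 ± 26 and 185 ± 7.9. The rarest receptor was Xcr1 in WT (0.0726 ± 0.061 RPKM), Ccr6 in DF (0.0802 ± 0.044), Cxcr1 in TF (0.105 ± 0.12) and Cxcr5 in TFD (0.164 ± 0.039). In DF, TF and TFD these overlapped the spread of the next rarest receptor.

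Read as ligand and receptor partners, Ccl2 and Ccr2 both rose in DF, TF and TFD. For Cxcl2 and Cxcr2 both fell in TF and TFD, and in DF the ligand fell while the receptor value was −0.44 (adjusted p = 0.117). Xcl1 fell and Xcr1 rose in TF and TFD. Cxcl16 rose in TF and TFD while Cxcr6 was called by edgeR in neither and by DESeq2 and limma as lower in TFD. Ccl6 and Ccl9 rose in TF while their receptor Ccr1 fell, and in TFD they rose with a Ccr1 value of −0.54 (adjusted p = 0.0623). Neither Cxcl12 nor Cxcr4 was called in any genotype by edgeR with all libraries. Protein and receptor occupancy were not measured.

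The next question was whether the mutant genotypes differed from each other. Between DF and TF, 1 of 31 members was higher in DF and 6 were lower, where 1.67% of all genes tested were higher and 4.27% lower. With library totals as size factors the members' counts were the same, and among all genes called the share higher in DF went from 28.1% to 13.9%. The ligands Cxcl9, Cxcl10 and Cxcl16 and the receptors Ackr1, Ccr9 and Ccrl2 were lower in DF, and Ccr1 was higher. The log2 fold change of DF against TF was −2.20 for Cxcl9 (SE 0.60, adjusted p = 0.0490), −1.81 for Cxcl10 (SE 0.47, adjusted p = 0.0425) and −1.46 for Cxcl16 (SE 0.38, adjusted p = 0.0427). For the receptors it was −3.12 for Ackr1 (SE 0.64, adjusted p = 0.0156), −3.38 for Ccr9 (SE 0.74, adjusted p = 0.0206), −1.59 for Ccrl2 (SE 0.36, adjusted p = 0.0249) and 0.76 for Ccr1 (SE 0.17, adjusted p = 0.0248). DESeq2 called 13 members here, among them Cx3cr1, Cxcr5, Ccr7 and Ccr6 as lower and Cxcr2 as higher in DF. The calls of Cxcl9, Cxcl10 and Cxcl16 were all lost with limma (4 members called), with a term for libraries with Xist reads (5) and in the fit of only these genotypes (6), each of which kept Ackr1, Ccr9, Ccrl2 and Ccr1. Without TF replicate 3 only Ackr1 (−2.11, adjusted p = 0.0252) and Ccr9 (−1.93, adjusted p = 0.0237) were called, where 0.591% of all genes were called higher and 2.21% lower. The other 5 were then at −1.28 for Ccrl2, 0.68 for Ccr1, −0.89 for Cxcl16, −1.13 for Cxcl10 and −1.43 for Cxcl9, with adjusted p values of 0.0710, 0.0855, 0.171, 0.180 and 0.210. Without DF replicate 2 or without DF replicate 3 no member was called, and without DF replicate 1 Ccr1 alone was called, whereas 13 members were called without TF replicate 2. The share of all genes called is not given here for these fits or for DESeq2. Whether the members' counts follow that share was not tested.

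Against DF, no member was called in TFD by edgeR, where 0% of all genes tested were called in either direction. At an unadjusted p under 0.05 there were 4 members (1727 of all genes), and the lowest adjusted p, 0.108, was that of Cxcl2, with a log2 fold change of −1.06 (SE 0.22). Ackr1 was 2.94 higher in TFD than in DF (SE 0.69, adjusted p = 0.118). DESeq2 called 3 members, Ackr1 as higher and Cxcl2 and Ccr1 as lower in TFD, and limma on log2(CPM + 1) called 0. The share of all genes that DESeq2 called is not given here. Without TF replicate 3, which enters this fit through the shared estimate of the spread, Ackr1 and Cxcl2 were called (adjusted p = 0.00324 and 0.0273), where 1.43% of all genes were called higher and 0.452% lower. Against TF, edgeR called no member in TFD and 0.00821% of all genes in each direction, and DESeq2 and limma called 0. Here 7 members had an unadjusted p under 0.05 (1068 of all genes), with the lowest adjusted p of 0.279 for Cxcl9 (−2.49, SE 0.70), which was −1.72 without TF replicate 3 (adjusted p = 0.513). Without TFD replicate 1, Ccrl2 was called lower in TFD (−2.40, adjusted p = 0.0221).

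Other genes of the pathway were taken from lists by role, and their counts stand beside the shares of all genes given above (21.0% higher and 16.6% lower in DF, 19.0% and 15.6% in TF, 14.7% and 11.6% in TFD). Of 12 G protein subunits, 3 rose and 2 fell in DF, 3 and 3 in TF, and 3 and 0 in TFD, of which Gng2, a gamma subunit, had the largest change in TFD, at 0.73 (SE 0.12, adjusted p = 0.00109). Of 31 effectors of migration, 15 rose and 1 fell in DF, 9 and 1 in TF, and 9 and 0 in TFD. Pik3r6, a regulatory subunit of the phosphoinositide 3-kinase that G proteins activate, had a log2 fold change of 1.05 in DF, 0.96 in TF and 1.12 in TFD (adjusted p = 0.000165, 0.000408 and 0.000324). Of 14 measured genes of desensitization (receptor kinases, arrestins and RGS proteins), 8, 5 and 4 rose and 0 fell. Adrbk2, which encodes a receptor kinase, rose by 1.04, 1.46 and 1.64 in DF, TF and TFD (adjusted p = 0.000107, 1.29e-05 and 1.39e-05).

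Of 12 measured receptors for other attractants (formyl peptides, complement, sphingosine 1-phosphate), 2 rose and 3 fell in each mutant genotype. The largest change was in S1pr1, the receptor by which lymphocytes leave tissue, at −4.22 in DF, −2.68 in TF and −3.70 in TFD (adjusted p = 4.45e-05, 0.000539 and 0.000367). Of 9 measured proteases that trim chemokines, 3 rose and 1 fell in DF, 2 and 2 in TF, and 1 and 0 in TFD, with cathepsin G (Ctsg) at 0.66 in TFD (adjusted p = 0.0484). The platelet chemokines Pf4 and Ppbp carry other symbols and are not among the 31. Pf4 had 218, 94 and 187 counts in WT, 79, 110 and 76 in DF, 96, 141 and 71 in TF, and 520 and 87 in TFD, and it fell in DF (−1.16, adjusted p = 0.0383). Ppbp had 53, 26 and 71 counts in WT, 23, 62 and 38 in DF, 70, 76 and 31 in TF, and 394 and 56 in TFD, and was called higher in TFD (1.67, adjusted p = 0.0350). Its log2 CPM was 4.62 in TFD replicate 1 and 2.33 in TFD replicate 2, the latter within the WT range of 1.70 to 2.67. Pf4 and Ppbp were both far higher in TFD replicate 1 than in TFD replicate 2, as were the megakaryocyte and platelet markers, which summed to 107 and 42.5 CPM there, 51.7 to 70.9 in WT, 35.4 to 44.6 in DF and 31.2 to 46.3 in TF. Of these 6 markers 4 fell in DF, 1 fell in TF and none was called in TFD, and their part in the values of Pf4 and Ppbp was not tested.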

How the data were processed

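The libraries were made from whole BM mononuclear cells after removal of globin mRNA, with a stranded total RNA kit, per the labels. As the study's methods state, FastQC was used for read quality, STAR for unique alignment to mm10, and featureCounts with refGene for counting, and genes had to exceed 0.5 CPM in more than 3 samples. Versions of these tools and the strand setting are not given in the sources used here. The authors deposited raw counts per gene, gene lengths and log2 CPM values. The log2 CPM values equal those computed from the counts by edgeR with TMM factors and a prior count of 0.25.

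Counts were tested in R 4.3.3 with edgeR 4.0.16 (TMM factors, quasi-likelihood F test, 1 mean per genotype over 11 libraries, Benjamini-Hochberg over 12175 genes), for each of the 6 pairs of genotypes. Members called in any comparison (adjusted p under 0.05) are described with each library's value and the others by their range. For each pathway list, the called gene that changed most in TFD is named, besides Pf4 and Ppbp. The counts cover all 31 members, and the values of 1 of them are not reported here. The gene family and the lists were chosen with earlier results of these data known. Counting intervals are exact and at a level of 95%. The procedure was tested on simulated data. Alternatives were RLE factors, library totals, no filter, a stricter filter, a fit of only the genotypes compared, a replicate block, a term for libraries with Xist reads, DESeq2 1.42.0, limma 3.58.1, a 2-fold minimum, and omission of each library in turn. Values were tabulated with pandas 2.3.3 and scipy 1.17.1 and drawn with matplotlib 3.10.9 in Python 3.11.15.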

Additional observations from a re-analysis of the deposited data

Results flagged for a closer look

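Of the 31 members, 7 differed between 2 mutant genotypes by the test of that difference, all in DF against TF. As log2 fold changes of DF against TF they were Ackr1 (−3.12), Ccr9 (−3.38), Ccrl2 (−1.59), Cxcl10 (−1.81), Cxcl16 (−1.46), Cxcl9 (−2.20) and Ccr1 (0.76). For Ccr9, Ackr1, Cxcl9, Cxcl10, Cxcl16 and Ccrl2, TF replicate 3 was the highest of the TF libraries, and without it the 2 called were Ackr1 and Ccr9.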

How the results depend on the processing

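Groups of 2 or 3 libraries and, for members with few reads, low counts limit these results. Of the 17 members called against WT in each mutant genotype, 13 in DF, 13 in TF and 9 in TFD were called under every alternative that gave a value other than the 2-fold minimum, and none of the 7 called in DF versus TF was. With a 2-fold minimum the calls numbered 15 in DF, 14 in TF, 14 in TFD and 6 in DF versus TF. Leaving out each library in turn, the number called was 15 to 19 in DF versus WT, 13 to 19 in TF versus WT, 13 to 19 in TFD versus WT, 0 to 13 in DF versus TF, 0 to 2 in TFD versus DF and 0 to 1 in TFD versus TF. In DF versus TF, DESeq2 called 13 and limma on log2(CPM + 1) called 4. In TFD versus DF, DESeq2 called 3, a fit of only these genotypes called 2 and the replicate block called 1 (Cxcl2). The log2 fold change of Cxcl12 in TFD vs WT, 0.71 and not called, turned to −0.48 without TFD replicate 1 and was called at 1.34 without TFD replicate 2 (adjusted p = 0.0409), and the cause was not tested. Whether the replicate numbers pair the libraries could not be settled. Deviations from the mean of 2 or 3 libraries are tied to each other, so correlating them cannot exclude pairing. Same-numbered libraries had correlations of −0.30 to 0.25, with 3 of 15 pairs over 0.1 and 4 of 11 libraries closest to their own number. With the block, the calls against WT numbered 17 in DF, 18 in TF and 18 in TFD, and 5 in DF versus TF. Shares of all genes called are given for the main fit and the fit without TF replicate 3 only. Members' counts under the other alternatives have no such share beside them. The stricter filter removed some low members, which then have no value.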
